A study of Crinum x powellii with 21 samples.

Results

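Light-grown callus of Crinum x powellii, genotype var Album, was compared with dark-grown callus at 4 mg/L of the synthetic auxin 2,4-D. The comparison used 6 of the 21 RNA-seq libraries, which were chosen by their treatment labels. In 3 libraries (replicates A, B and C) the cultures had a day of 14 h light and 10 h dark, and in the other 3 (also A, B and C) they stood in darkness for 24 h. All 6 shared the remaining culture conditions: callus arose on twin-scale explants of bulbs bought commercially, on MS medium with sucrose, yeast extract and the cytokinins BAP and kinetin. Light was the only labelled difference between both groups. The labels name no donor bulb or separate culture for any library, so the p-values measure the spread between these libraries, which may be partly technical. Callus from 2 mg/L of 2,4-D (3 light-grown and 2 dark-grown libraries) and 10 libraries of root, leaves, bulb and basal plate, the compressed stem at the foot of the bulb, served for reference. The titles of the 2 mg/L libraries carry a 3 and not a 2, and the concentration used here is that of the treatment label. Counts existed for 676992 assembled features, each the sum of its isoforms, and 121349 of them passed the filter on low counts and were tested.

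Callus is dividing, largely unorganised tissue that auxin and cytokinin maintain on explants. In Arabidopsis, callus formed on auxin-rich medium is known to pass through a programme of root development, and auxin is the classical inducer of roots in tissue culture. Light is sensed by phytochromes and cryptochromes and drives greening and the build-up of chloroplasts, while tissue kept in darkness stays pale. Species of Crinum belong to the Amaryllidaceae and are known for alkaloids such as lycorine and galanthamine, which bulbs accumulate. The files pair no feature with a gene name or function, so features are described here by level, by response and by the organ in which they were expressed.

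The 6 libraries held between 47354328 and 58704905 estimated counts. CPM below are counts scaled to a common library total. Pearson correlations of log2(CPM + 1) across features, which are not independent replicates, ran from 0.989 to 0.993 among the light-grown libraries, from 0.990 to 0.992 among the dark-grown libraries and from 0.969 to 0.977 between both groups. The leading principal component held 48.5% of the variance and set the light-grown libraries, at 117 to 178, apart from the dark-grown libraries, at -153 to -136. Dark-grown replicate C stood apart in a small set of features. In 43 tested features it reached at least 5 CPM and at least 4 times the level of both other dark-grown libraries, whereas no feature met the same condition for dark-grown replicate A or B, and 4, 8 and 6 features met it for light-grown replicates A, B and C. The median level of these 43 features was 3.04 CPM in dark-grown replicate A, 2.99 in B and 21.3 in C, against 3.55 to 4.39 CPM in the light-grown libraries. They took 0.366% of the counts of replicate C and 0.0430% and 0.0475% of those of A and B. Several results that depend on replicate C are given with and without it.

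Between light and darkness, 15288 features differed (12.6% of those tested; edgeR's quasi-likelihood test, Benjamini-Hochberg adjusted p under 0.05, termed called below). Of these, 8879 were higher in light (7.32%) and 6409 were lower (5.28%). In such bulk samples, fewer cells of a type and less RNA per cell cannot be told apart. The rises were larger than the falls: the median log2 fold change was 1.79 among features called higher and -1.08 among those called lower, against 0.06 over all tested features. Without light-grown replicate B the same test called 6830 features higher and 3514 lower. Without dark-grown replicate C it called 7247 higher and 4277 lower, so the number of falls depended on these libraries.

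The imbalance between rises and falls grew with the size of the change. At least a 2-fold change was found for 7512 called rises and 3643 called falls. At 4-fold or more there were 3776 rises (3.11% of tested features) and 1032 falls (0.85%), at 16-fold or more 971 and 169, and at 64-fold or more 282 and 37. Rises thus made up 58.1% of all calls, 78.5% of those of at least 4-fold and 88.4% of those of at least 64-fold. Without dark-grown replicate C, 3641 features were called at least 4-fold higher and 782 at least 4-fold lower.

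**Figure D1:**
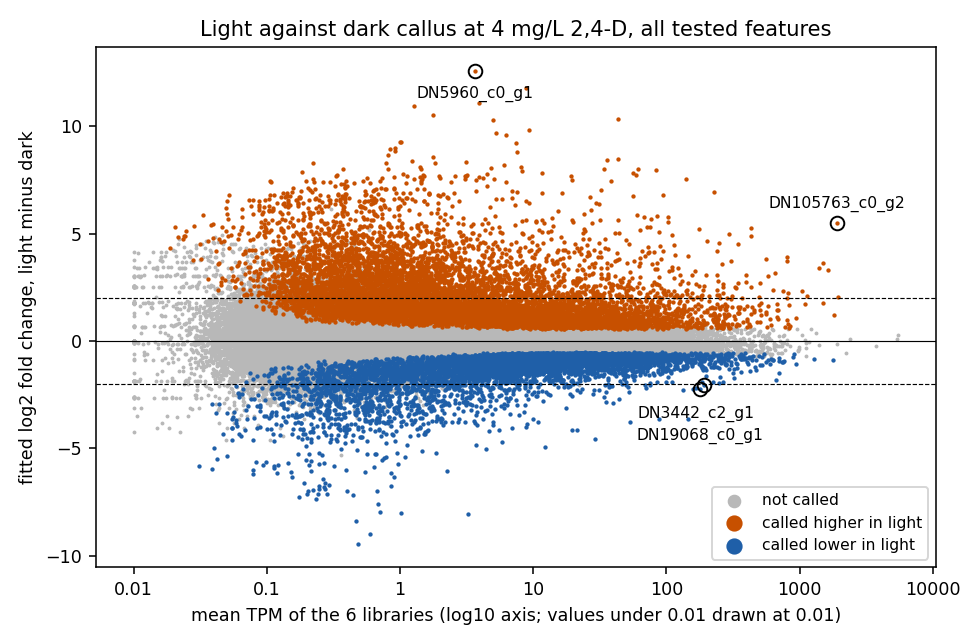
Each point is 1 of the 121349 tested features, placed by its mean TPM over the 6 libraries (log axis) and its fitted log2 fold change, light minus dark (orange: called higher, blue: called lower, grey: not called; dashed lines: 4-fold). The 3776 rises past the upper dashed line outnumber the 1032 falls past the lower one; the 4 circled features are those described by name.

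The direction of the response differed with the level of the feature. Features were placed in classes by their mean TPM (the deposited level per transcript length, scaled to a common total) over the 6 libraries. From 0.1 to 1 TPM, 3088 of 66884 tested features were called higher and 1121 lower, so that rises made up 73.4% of the calls. From 1 to 10 TPM there were 3443 rises and 2468 falls among 32568 features. The balance turned between 10 and 100 TPM, where 1879 of 14522 features (12.9%) were called higher and 2491 (17.2%) lower. At 100 TPM or more, 327 of 1491 features (21.9%) were higher and 272 (18.2%) lower. With limma on log2(TPM + 1) in place of counts, falls outnumbered rises over all features as well, with 7669 called higher and 8186 lower.

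Changes were smaller where levels were high. The median absolute log2 fold change of called features was 3.72 in the class under 0.1 TPM, 2.19 from 0.1 to 1 TPM, 1.42 from 1 to 10 TPM, 0.96 from 10 to 100 TPM and 1.01 at 100 TPM or more. The median count per library rose from 5.67 in the lowest class to 7450 in the highest, so small changes could be called in the upper classes and not in the lower ones. Falls of at least 4-fold were rare among abundant features: 6 features of the highest class fell this far, while 85 rose.

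**Figure D2:**
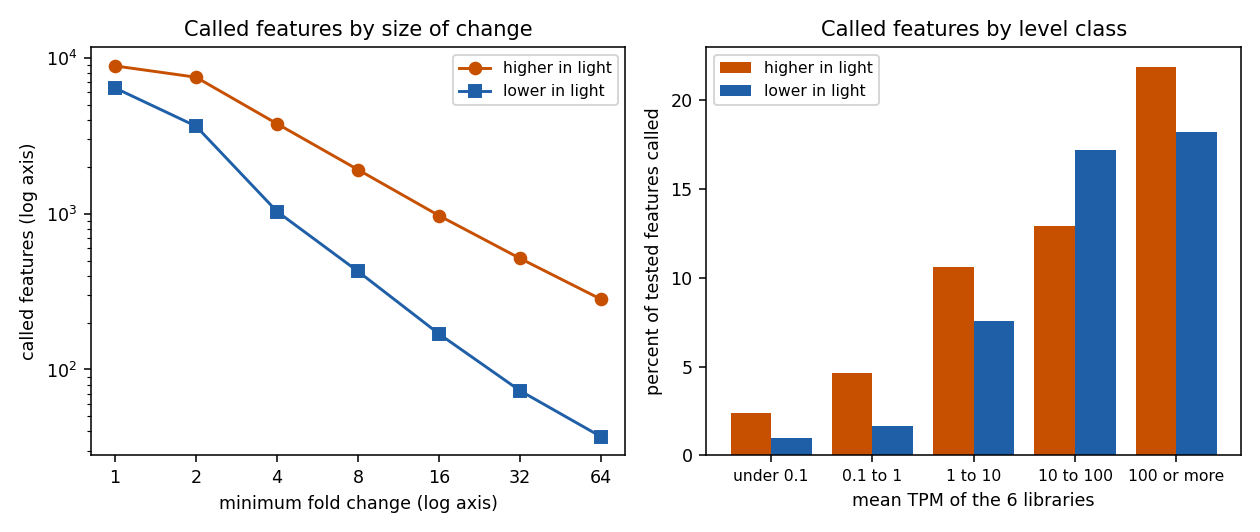
Left, the number of called features (log axis) that changed by at least the fold on the x axis (log axis), higher (orange) or lower (blue) in light; right, the percent of tested features called in each class of mean TPM over the 6 libraries. The lines part from 8879 and 6409 at the left end to 282 and 37 at 64-fold, and falls outnumber rises only in the class from 10 to 100 TPM.

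The most abundant part of the transcriptome was reordered. The 100 features with the highest mean TPM in light and the 100 highest in darkness had 49 in common. Of the leading 100 in light, 53 were called higher and 4 lower, and of the leading 100 in darkness, 8 were called higher and 27 lower. Ranking by the level in 1 group favours features that were higher in that group, so these directions are no independent result. Among all features at 100 TPM or more over the 6 libraries, 21.9% were called higher and 18.2% lower. Features that were higher in root than in every other organ filled 33 of the leading 100 places in light and 14 in darkness, while the corresponding leaf-enriched features filled 3 places in each.

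The highest level in light among features that rose at least 4-fold without overlap was that of Crpow_TRINITY_DN105763_c0_g2, a feature with 1 isoform. Its level was 2700, 3060 and 5360 TPM in light-grown replicates A, B and C and 67.5, 64.8 and 137 TPM in dark-grown replicates A, B and C. Replicate C was the highest library in both groups, and the lowest light-grown library stood far above the highest dark-grown one. Light-grown callus was higher by 5.48 ± 0.35 (log2 fold change and standard error; edgeR's quasi-likelihood test, adjusted p = 4.52e-12). At 2 mg/L, where the libraries are separate ones, the feature had 1850 ± 548 TPM (SD, n = 3) in light and 26.4 ± 7.09 TPM (SD, n = 2) in darkness, a log2 fold change of 6.50. Among organs it was close to specific to root, at 2520 and 581 TPM in the root libraries, at 17.0 and 0 TPM in the basal plate and at 1.39 TPM or less in every bulb and leaf library. A further feature of the same assembly cluster, which may share reads with it, had at most 27 counts in a library and a log2 fold change of 4.69.

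The 12 features of highest level in light by the same rule, ranked by that level, rose by 2.04 to 5.48 on the log2 scale to mean levels between 1170 and 3710 TPM. Their highest organ was root for 11 and basal plate for 1, and 8 were root-enriched by the test across organs. At 2 mg/L, 11 of the 12 were called higher in light as well, against 13.4% of all tested features. The size of the response to light differed between the concentrations for 7 of them (interaction of light and concentration in the same fit, called for 11.5% of all tested features). The feature of rank 5, the one with its highest organ level in the basal plate, had 2510 ± 446 TPM in light and 269 ± 36.9 TPM in darkness (SD, n = 3 each). The log2 fold change at 4 mg/L was 3.38 and that at 2 mg/L 0.70 (edgeR, adjusted p of the interaction = 5.6e-07). The feature of rank 11 had a log2 fold change of 2.31 at 4 mg/L and 0.30 at 2 mg/L (adjusted p of the interaction = 6.83e-05). Rank 9, in contrast, had 3.73 at 4 mg/L and 5.50 at 2 mg/L (adjusted p of the interaction = 0.00272). The 12 features were chosen by their change and level at 4 mg/L, which favours a larger effect there. Interactions with the larger effect at 4 mg/L are therefore no independent result.

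Falls of at least 4-fold reached much lower levels. The feature with the highest level in darkness was Crpow_TRINITY_DN19068_c0_g1, with 334, 440 and 147 TPM in dark-grown replicates A, B and C and 113, 50.2 and 67.0 TPM in light-grown replicates A, B and C. Dark-grown replicate C lay nearest to the light-grown libraries, and the groups did not overlap. The log2 fold change and standard error were -2.07 ± 0.38 (edgeR, adjusted p = 0.000338), and it lay between -2.39 and -1.71 when any 1 callus library was left out. This feature was root-enriched too, with 354 and 293 TPM in the root libraries and 10.8 to 12.8 TPM in leaves. Root-enriched features therefore stood among both the most abundant rises and the most abundant falls.

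A fall from a high level could also rest on 1 library. Crpow_TRINITY_DN3442_c2_g1, described here after its values were seen, was next in level in darkness, with 86.3, 99.4 and 703 TPM in dark-grown replicates A, B and C and 48.4, 71.0 and 66.5 TPM in light-grown replicates A, B and C. Replicate C alone was far above the light-grown libraries. The log2 fold change and standard error were -2.22 ± 0.52 (edgeR, adjusted p = 0.00394), and without dark-grown replicate C it was -0.53 (adjusted p = 0.472). The call was also lost with limma on log2(TPM + 1) (adjusted p = 0.221) and on log2(TPM + 0.1) (adjusted p = 0.289). Of the 12 falls of highest level in darkness, whose means lay between 88.5 and 307 TPM, 6 were features in which replicate C was at least 4 times both other dark-grown libraries. The highest organ of these 12 falls was root for 8, basal plate for 3 and bulb for 1, and 4 were root-enriched. Root was the most frequent highest organ in both sets of 12, but at unlike levels. The 11 rises with root as highest organ had 53.1 to 3470 TPM there. The 6 falls marked by replicate C had root as highest organ too, at only 0.584 to 9.26 TPM. The falls of rank 1 and rank 8 had 324 and 1.1 TPM in root. Among all 1032 falls of at least 4-fold, 1 dark-grown library was at least 4 times the next in 80, and that library was replicate C in 67 of them, B in 11 and A in 2. The corresponding number among the 3776 rises was 45, spread as 13, 16 and 16 over light-grown replicates A, B and C.

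The 43 features in which replicate C stood apart were nearly silent in the organs, with medians of 0.0251 to 0.687 CPM over the 10 organ libraries. At 4 mg/L, 26 of them were called lower in light (5.28% of all tested features were), and 7 were without replicate C, when their median log2 fold change went from -1.98 to -0.12. Choosing features by a high dark-grown library favours such calls at 4 mg/L, so the 26 are no independent result. At 2 mg/L, in other libraries, 22 of the 43 were called lower in light, against 12.1% of all tested features, with a median log2 fold change of -2.59. Their median level there was 2.33 and 1.18 CPM in the dark-grown libraries and 0.207 to 0.757 CPM in the light-grown ones.

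Features that were fully on in either group and off in the other were rare. A feature was taken as switched on when it had 0 counts in all 3 dark-grown libraries and at least 1 CPM in all 3 light-grown libraries. The rule found 10 features, with means of 1.27 to 15.3 CPM in light. All 10 were called higher, which follows from the rule and is no separate result. The converse rule, 0 counts in light and at least 1 CPM in each dark-grown library, found none. Allowing up to 2 counts in the silent libraries gave 37 features switched on and 2 switched off, and a minimum of 0.5 CPM with 0 counts gave 19 and 1. With salmon's estimated counts 7 of the 10 had 0 counts in all 3 dark-grown libraries, and 4 of the 10 met the whole rule. Ranked by mean CPM in light, features 2, 5 and 7 had at most 13, 1 and 4 such counts in a dark-grown library. Features 8, 9 and 10 had none there and missed the rule only by falling under 1 CPM in a light-grown library. Of the features just outside the rule, 27 had 1 or 2 counts in a dark-grown library and 1 CPM or more in each light-grown one.

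The switched-on feature with the highest level was Crpow_TRINITY_DN5960_c0_g1. It had 0 counts in dark-grown replicates A, B and C and 12.4, 15.2 and 18.4 CPM in light-grown replicates A, B and C. Taking 3 counts over the 3 dark-grown libraries together as the limit that a count of 0 allows, its level was at least 774-fold higher in light (edgeR, adjusted p = 9.16e-14). The feature was chosen by its counts in these same libraries, so this p-value adds no support. At 2 mg/L the dark-grown libraries A and C were at 0 as well, and light-grown replicates A, B and C had 10.5, 15.2 and 13.7 CPM. Every organ expressed it, at 11.4 to 21.3 CPM in bulb, 11.8 and 17.0 CPM in root, 5.08 to 8.22 CPM in leaves and 6.64 and 1.25 CPM in the basal plate. Silence in all 5 dark-grown callus libraries therefore set it apart from every light-grown callus and organ library.

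The other 9 switched-on features fell into several patterns across the series. The feature of rank 2 was nearly confined to light-grown callus at 4 mg/L: it had 1.40, 10.3 and 14.0 CPM there, 0.0169 CPM or less in each light-grown library at 2 mg/L, and 0 in 9 of the 10 organ libraries. The feature of rank 3 had 8.46, 3.36 and 5.05 CPM in light at 4 mg/L and far more, 251, 173 and 174 CPM, in light at 2 mg/L. Its organ levels were 17.9 to 70.8 CPM in leaves, 2.24 to 5.32 CPM in bulb and 0.475 CPM or less in root. The feature of rank 6 had counts in callus and in none of the organ libraries, and reached 3.18, 2.30 and 3.88 CPM in light at 4 mg/L and 7.21, 12.4 and 10.2 CPM in light at 2 mg/L. Over the 10 features, 8 were called higher in light at 2 mg/L too (13.4% of all tested features were), 5 reached 1 CPM in all 3 light-grown libraries there, and 3 had 0 counts in both dark-grown libraries there. All root libraries had at least 1 CPM for 3 of the 10, all leaf libraries for 2, all bulb libraries for 2 and both basal plate libraries for 1. Counts of 0 in every library of an organ were found for 7 features in leaves, 6 in bulb, 3 in the basal plate and 2 in root.

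**Figure D3:**
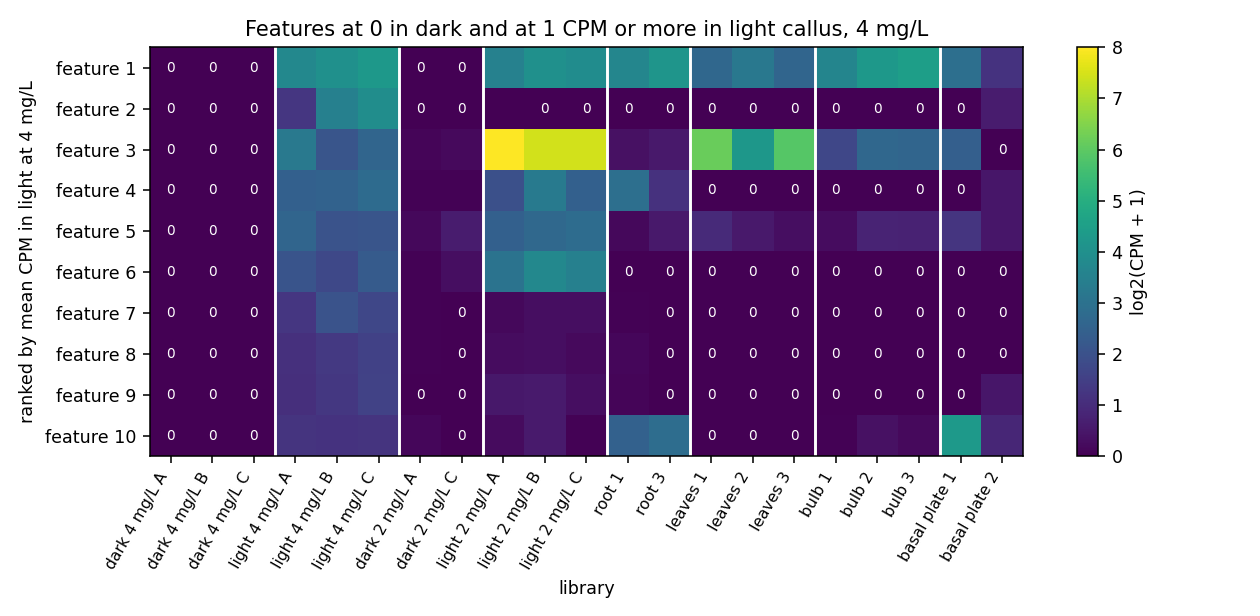
Level of the 10 switched-on features, as log2(CPM + 1), in each of the 21 libraries, ranked from the top by mean CPM in light at 4 mg/L; a printed 0 marks a library with no count. Features 1, 3, 4, 5 and 6 reach 1 CPM in all light-grown libraries at both concentrations, while features 2 and 7 to 10 stay under 1 CPM at 2 mg/L, and feature 3 reaches 251 CPM in light at 2 mg/L.

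Organ expression divided the response. Organ-enriched features were those higher in an organ than in each of the other 3 at an adjusted p under 0.05 in a fit of the 10 organ libraries, which took no part in the contrast of callus. This gave 2311 features for root (2.29% of the 100919 features tested in organs), 2011 for leaves (1.99%), 1433 for bulb (1.42%) and 433 for the basal plate (0.429%). Organ RNA was isolated with a CTAB buffer and callus RNA with a column kit, so levels in callus and organs were not compared by a test.

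Root-enriched features were mostly on the higher side in light-grown callus. Of the 2150 that were tested in callus, 960 (44.7%) were called higher in light and 142 (6.60%) lower, compared with 7.32% and 5.28% of all tested features. The median log2 fold change of the list was 0.65, and 72.8% of its features lay above 0. The share of the list called higher was above that of all tested features in each level class from 0.1 TPM upwards. It was 40.2% against 4.62% from 0.1 to 1 TPM and 39.4% against 10.6% from 1 to 10 TPM. From 10 to 100 TPM it was 48.5% against 12.9%, and at 100 TPM or more 59.5% against 21.9%. Among the 100 root-enriched features with the highest level in root, 68 were called higher and 5 lower. Their median level in callus was 258 TPM in light and 92.7 TPM in darkness. Over 22 alternative settings and left-out libraries the share of the list called higher ran from 37.9% to 53.7%, with more rises than falls in each. The list itself changed with the organ libraries: without root replicate 1 it held 821 tested features, of which 430 (52.4%) were called higher and 56 lower, and without basal plate replicate 1 it held 3328, of which 257 were lower.

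The same shift was visible in the share of a library's counts. Root-enriched features took 12.2%, 12.2% and 14.4% of the counts in light-grown replicates A, B and C and 6.81%, 6.86% and 6.81% in dark-grown replicates A, B and C. The groups did not overlap, and the spread among the dark-grown libraries was small. At 2 mg/L the share was 9.86% to 10.5% in light and 5.60% and 5.86% in darkness. For scale, the root libraries themselves gave 14.1% and 8.46%, and the other organs 1.75% to 3.06%.

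**Figure D4:**
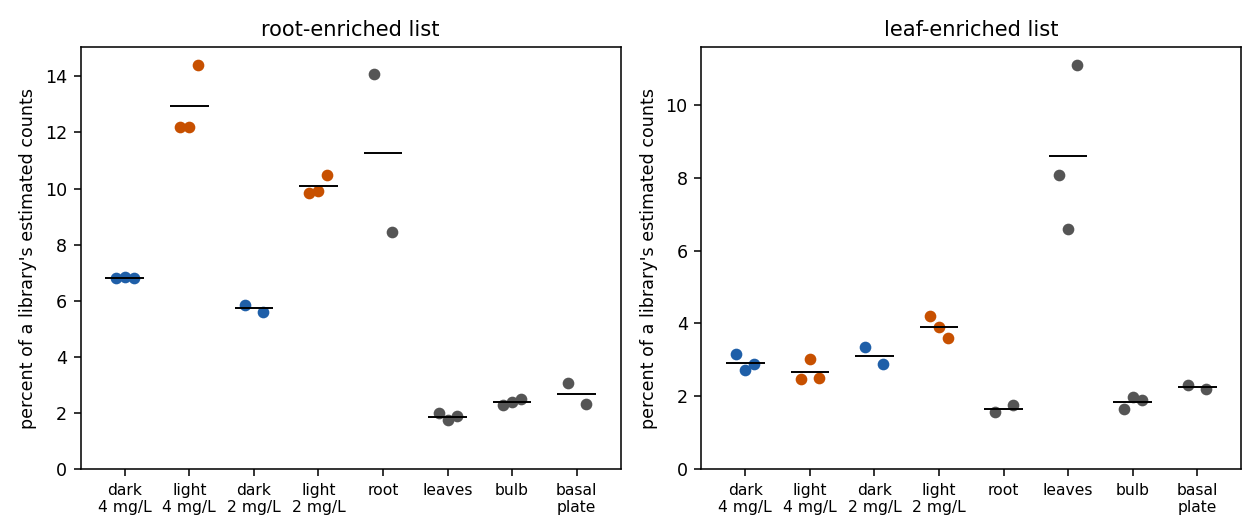
Percent of each library's estimated counts held by root-enriched (left) and leaf-enriched (right) features, with 1 point per library and a bar at the group mean (blue: dark-grown callus, orange: light-grown callus, grey: organs). The root-enriched share at 4 mg/L is 6.81% to 6.86% in darkness and 12.2% to 14.4% in light, while the leaf-enriched shares of both groups overlap.

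Leaf-enriched features were called in both directions at 4 mg/L. Of 1708 tested, 226 (13.2%) were called higher and 280 (16.4%) lower, with a median log2 fold change of -0.07. Both shares were above those of all tested features. From 10 to 100 TPM in callus, 16 of 230 were called higher and 93 lower, and from 0.1 to 1 TPM, 82 of 634 were higher and 42 lower. Over all tested features the balance turned between these classes too, with 1879 higher and 2491 lower from 10 to 100 TPM and 3088 and 1121 from 0.1 to 1 TPM. Among the 100 leaf-enriched features with the highest level in leaves, 27 were called higher and 26 lower, and 21 of the rises but 1 of the falls were at least 4-fold. The leaf-enriched share of counts was 2.49%, 3.02% and 2.51% in light-grown and 3.16%, 2.71% and 2.88% in dark-grown replicates A, B and C, and the groups overlapped. Rises outnumbered falls under 2 of 22 alternatives. Without light-grown replicate B 205 were called higher and 179 lower, without leaf replicate 1 the falls numbered 164 of 959, without leaf replicate 3 they numbered 175 of 887, and without basal plate replicate 1 465 of 2755.

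Bulb-enriched and basal-plate-enriched features were also called in both directions. In the bulb list 175 of 1142 were called higher (15.3%) and 200 lower (17.5%). Which was the larger number depended on the settings, since rises outnumbered falls under 13 of 22 alternatives, among them library totals. Without dark-grown replicate C, 164 of 1139 were called higher (14.4%) and 109 lower (9.57%). In the basal plate list 39 of 347 were called higher (11.2%) and 59 lower (17.0%), with more rises than falls under 2 of 22 alternatives. Bulb-enriched features took 3.75%, 3.95% and 3.89% of the counts in light-grown replicates A, B and C and 4.43%, 4.17% and 4.98% in dark-grown replicates A, B and C. The share of the basal plate list was 0.261%, 0.256% and 0.212% in light and 0.323%, 0.334% and 0.341% in darkness. Both shares were lower in every light-grown library than in every dark-grown one.

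**Figure D5:**
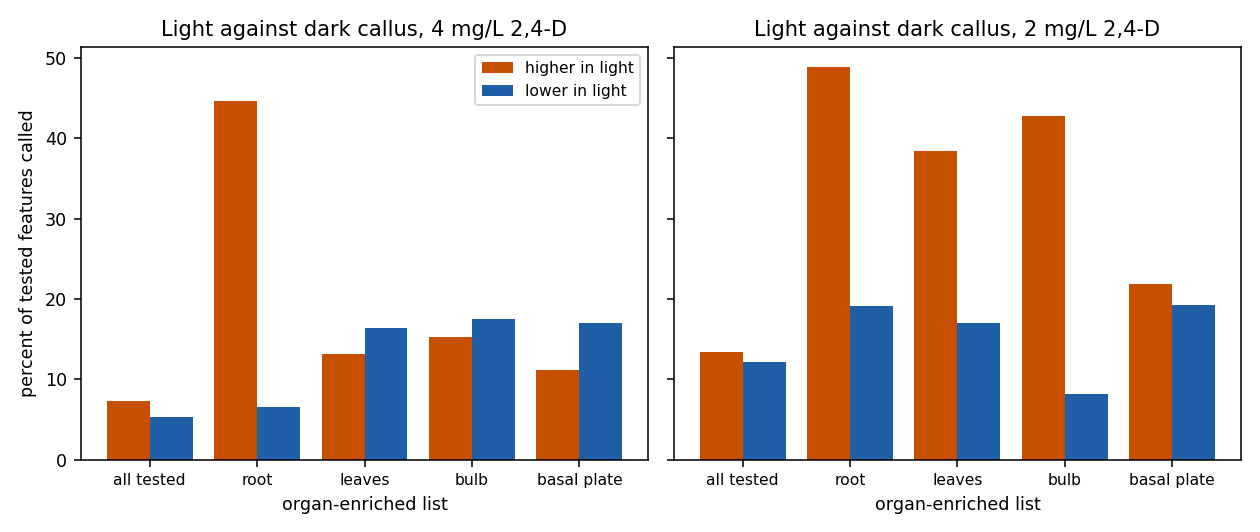
Percent of the tested features of each organ-enriched list, and of all tested features, called higher (orange) or lower (blue) in light at 4 mg/L (left) and at 2 mg/L (right). The root list has the largest share called higher at both concentrations, 44.7% at 4 mg/L and 48.9% at 2 mg/L. At 2 mg/L 38.4% of the leaf list and 42.8% of the bulb list were called higher as well.

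Seen from the called features, the organ of highest expression differed between rises and falls. A mean of at least 1 CPM in an organ was reached by 4954 of the features called higher (55.8%) and 4926 of those called lower (76.9%). Over all tested features the share was 38.7%. These CPM were scaled by library total only. The scaling factors of the organ fit were not applied: 1.17 to 1.28 in leaves, 1.21 and 1.45 in the basal plate, 0.789 and 0.892 in root and 0.730 to 0.810 in bulb. Root was the highest organ for 50.4% of these rises, compared with 21.7% over all tested features that reached this level. Leaves were the highest organ for 51.9% of the falls, compared with 34.4% over all. Basal plate was highest for 21.7% of the rises and 22.8% of the falls (31.5% over all), and bulb for 15.1% and 13.0% (12.3% over all). Of the changes of at least 4-fold, only 1391 of 3776 rises and 314 of 1032 falls reached 1 CPM in an organ. Root was the highest organ for 51.3% of these 1391 rises, and leaves for 43.0% of these 314 falls. Strong changes also included features that organs hardly expressed: 16.8% of the rises and 15.0% of the falls of at least 4-fold stayed under 0.1 CPM in every organ library, compared with 4.09% of all tested features.

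The response of the leaf-enriched list to light differed between the concentrations of 2,4-D. At 2 mg/L, where 13.4% of all tested features were called higher and 12.1% lower, 656 of the 1708 leaf-enriched features (38.4%) were called higher and 290 (17.0%) lower, with a median log2 fold change of 0.50. Of the leading 100 in leaves, 66 were called higher and 5 lower. The interaction of light and concentration was called for 601 leaf-enriched features (35.2%), compared with 11.5% of all tested features. The light effect was lower at 4 mg/L in 477 (27.9%, against 5.96% of all tested features) and higher in 124 (7.26%, against 5.56%). The root list gave 1052 rises (48.9%) and 410 falls (19.1%) at 2 mg/L. Its 743 called interactions (34.6%) were split into 399 lower and 344 higher at 4 mg/L. Under library totals the median log2 interaction over all features was 0.45 in place of 0.10, and this split turned to 327 lower and 547 higher for root, while for leaves it was 373 lower and 182 higher. For root the split also turned with a filter of at least 1 CPM in 2 libraries (414 lower, 463 higher), with limma on log2(TPM + 0.1) (295 and 457) and on log2(TPM + 1) (306 and 511), and without light-grown replicate C at 2 mg/L (317 and 414). The bulb list, with 489 rises and 93 falls at 2 mg/L, had 406 called interactions (35.6%), of which 365 were lower at 4 mg/L. With the filter of at least 1 CPM in 2 libraries the interaction was called for 28.9% of all tested features. It was then called for 47.8% of the leaf list, 44.8% of the root list and 43.8% of the bulb list, a smaller excess.

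The strongest changes at 4 mg/L were then followed at 2 mg/L, in separate libraries. At 2 mg/L, 13.4% of all tested features were called higher in light and 12.1% lower. Of the 3776 rises of at least 4-fold, 2235 (59.2%) were called higher there and 115 (3.05%) lower. Of the 1032 falls, 446 (43.2%) were called lower there and 72 (6.98%) higher. With a filter of at least 1 CPM in 2 libraries, the shares in the same direction were 78.8% for rises and 56.2% for falls. Under that filter 12168 of 46210 tested features were called higher and 10137 lower at 2 mg/L. For changes of at least 32-fold, 351 of 516 rises (68.0%) and 25 of 73 falls (34.2%) were called in the same direction at 2 mg/L. The difference between rises and falls in these shares was not tested. An example of a fall found at 4 mg/L is the abundant feature of rank 7, which had 164 ± 75.1 TPM in darkness and 12.4 ± 1.08 TPM in light (SD, n = 3 each), a log2 fold change of -3.63 at 4 mg/L and of 0.13 at 2 mg/L (edgeR, adjusted p of the interaction = 3.81e-05). The features called higher at 4 mg/L together took 20.4% to 21.4% of the counts in light and 6.40% and 6.53% in darkness at 2 mg/L.

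The share of called features was set beside the number of isoforms summed. A single isoform stood behind 50193 tested features, of which 6.14% were called higher and 4.28% lower, and 5 or more isoforms behind 18836, of which 9.60% were higher and 8.12% lower. Features of the same assembly cluster can be near-identical copies or alleles between which reads are divided. Among 13783 clusters with several tested features, 118 held both a rise and a fall, and in 10 both were at least 4-fold, so the direction of those features is uncertain.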

How the data were processed

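Expression was measured by RNA-seq of polyadenylated RNA. The authors deposited estimated (expected) counts per isoform and TPM per gene, each from salmon and from an unnamed first quantifier; the submitters' processing notes list fastp 0.23.4, kallisto 0.46.1 and Salmon 1.4.0 with no role. Per the design text, earlier datasets of the species were mapped to a joint assembly. The deposited tables named gene counts hold a rescaled signal, TPM times the library total (100% of values within 1% plus 0.02 counts), and were not used as counts. The deposited estimated counts per isoform of the first quantifier were summed per feature and rounded to whole numbers.

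Tests were made in R 4.3.3 with edgeR 4.0.16, using filterByExpr, TMM factors and the quasi-likelihood F test. Adjusted p-values follow Benjamini and Hochberg, and 0.05 was the threshold. The 11 callus libraries were fitted together, so all groups shared an estimate of the spread, and the 10 organ libraries in a fit of their own. Standard errors are the log2 fold change divided by the square root of F. CPM are counts scaled to a common library total. Levels of single features are the TPM that the authors deposited. Precision is limited by 3 libraries a group at depths of 47354328 to 58704905 estimated counts, and limits for counts of 0 cover counting error only. The procedure was tested on simulated counts.

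Named features were the switched-on feature of highest mean CPM in light, the rise of at least 4-fold without overlap of highest mean TPM in light, and the same for falls with light and darkness exchanged; no feature was switched off, and the second fall was added after its values were seen. The comparison, the lists and the rules were chosen with earlier results of these data known. Alternatives were other scalings, filters, salmon counts, DESeq2 1.42.0, limma 3.58.1 on log2(TPM + c) with c of 1 or 0.1, a replicate block and leaving out single libraries. Sequences were not used here.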

Additional observations from a re-analysis of the deposited data

Results flagged for a closer look

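The effect of light differed between 4 and 2 mg/L of 2,4-D, by the interaction term of the edgeR fit, for several of the sets described; over all tested features the interaction was called for 11.5%. Among features called at least 4-fold higher at 4 mg/L the interaction was called for 911 (24.1%), and it had a higher light effect at 4 mg/L in 556 of them; the number ran from 661 to 1468 over 20 alternatives. Among features called at least 4-fold lower it was called for 327 (31.7%; 163 to 337 over the same alternatives), with a lower light effect at 4 mg/L in 272. Choosing features by their size at 4 mg/L favours a larger effect there, so these counts and directions are no independent result. Of the 10 switched-on features it was called for 2; these were chosen by their counts of 0 in darkness at 4 mg/L, so nothing is read from this number.

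The organ lists were chosen without callus. The interaction was called for 601 leaf-enriched features (35.2%; 476 to 646 over 20 alternatives), with the lower light effect at 4 mg/L in 477, and for 743 root-enriched features (34.6%; 591 to 877). The share over all tested features depended on the filter: with at least 1 CPM in 2 libraries it was 28.9%, against 47.8% for leaves and 44.8% for root.

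For Crpow_TRINITY_DN19068_c0_g1 the interaction was -1.71 on the log2 scale with an adjusted p of 0.0476 (edgeR). This feature was chosen by its fall at 4 mg/L, so the p-value is no independent result. At 2 mg/L it had 137, 184 and 275 TPM in light-grown replicates A, B and C and 466 and 132 TPM in dark-grown replicates A and C. The call was lost under 12 of 20 alternatives. The adjusted p was 0.251 with DESeq2, 0.136 under library totals, 0.0582 with the replicate block and 0.112 with a filter of at least 1 CPM in 2 libraries. Both limma fits gave higher values than the edgeR fit, 0.19 with 0.1 and 0.181 with 1 added to the TPM. Leaving out libraries at 2 mg/L, it was 0.243 without dark-grown replicate C and 0.209 without light-grown replicate C. Of the libraries at 4 mg/L, it was 0.103 and 0.138 without dark-grown replicates A and B, and 0.127 and 0.0663 without light-grown replicates B and C. Leaving out dark-grown replicate A at 2 mg/L moved the interaction to -3.09 (adjusted p = 6e-05).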

How the results depend on the processing

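Of the values compared with their main setting, 300 moved by no more than 1.5 times for a count or kept their call, 33 counts moved further and 3 calls were lost, all 3 of Crpow_TRINITY_DN3442_c2_g1; none turned its direction. DESeq2 gave no adjusted p for this feature, which is not counted as a lost call. A filter of at least 1 CPM in 2 libraries left 1925 rises and 320 falls of at least 4-fold, of which 180 falls were called at 2 mg/L as well. Limma on log2(TPM + 0.1) gave 625 falls of at least 4-fold and 1485 rises shared with 2 mg/L; limma on log2(TPM + 1) gave 720 rises and 99 falls, of which 568 and 61 were shared, since a pseudocount shrinks the change of low features. Switched-on features numbered 19 at 0.5 CPM, 4 at 3 CPM and 37 with up to 2 counts taken as off, and switched-off features 1 at 0.5 CPM and 2 with up to 2 counts. Leaf-enriched features called lower numbered 493 under library totals and 421 with DESeq2; with lists of features at least 4 times above the mean of every other organ, 130 leaf-enriched and 78 root-enriched features were called lower.

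When single libraries were left out, features called lower ran from 3514 to 7702, switched-on features from 11 to 19 and switched-off features from 0 to 2. Leaf-enriched features called lower ran from 164 to 465, root-enriched features called higher from 430 to 1332 and root-enriched features called lower from 56 to 257. Where a group was left with 1 library, its spread was taken from the pooled fit, which assumes that it varied like the rest. The causes of these shifts were not tested beyond the construction of each alternative.

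The replicate letters gave no clear pairing of the libraries. The deviations from the group means had r = 0.33 for A, the highest of all light-dark pairs, -0.06 for B and 0.08 for C. Light-grown replicates B and C correlated best with dark-grown replicates A and B. With 3 libraries a group these values depend on each other, so they cannot exclude a pairing by letter. With the letter as a replicate block, 8474 features were called higher and 6273 lower, 3573 and 880 of them by at least 4-fold, and in the organ fit with the replicate block 781 root-enriched features were called higher and 103 lower.

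Depth limits the weakest class most: under 0.1 TPM the median count per library was 5.67, and called features there had a median change of 3.72 in size on the log2 scale. A count of 0 in 3 libraries sets an upper limit of 3 counts over the group and does not show absence. Without annotation, levels cannot be tied to functions, and 3 libraries a group of unknown culture origin limit every comparison.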
